A study of Mus musculus with 12 samples.

Results

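The clustered protocadherin genes of the mouse were taken as all protein-coding entries of the deposited tables whose symbol begins with Pcdha, Pcdhb, Pcdhga, Pcdhgb or Pcdhgc followed by a member number or letter. This gave 57 of 57180 genes. Of these, 14 belong to the alpha cluster, 22 to the beta cluster and 21 to the gamma cluster. Pcdhgb8 is listed with another gene type and lay outside the choice, at 1.21 to 3.17 CPM (a counts-per-million value, scaled between libraries by TMM).

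The libraries came from spinal cord lesions of female C57BL/6J wild-type mice. Every mouse had a clip compression injury at thoracic level 9 to 10, and the lesion with about 0.5 cm of cord on either side was taken 7 days later. In OVX8_SCI7 mice the ovaries were taken out 8 weeks ahead of the injury, in OVX2_SCI7 mice 2 weeks ahead of it, and SCI7 mice were injured without ovariectomy. Each group has 4 libraries, which the labels call biological replicates. All labels give an age of 8 weeks without saying when it applied, so age at injury may differ between the groups. Ovariectomy, which removes the main source of circulating oestrogen, was set against injury without any ovary surgery. No sham operation and no uninjured cord was analysed here, so the surgery and the loss of hormone cannot be told apart.

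Clustered protocadherins are cell surface proteins of the cadherin superfamily that bind the same isoform on the facing cell. Most isoforms are switched on in single neurons by a largely random choice among many promoters, through looping by CTCF and cohesin and through DNA methylation, so that neighbouring neurons carry different sets. Isoforms of the C type are used by most neurons of a kind and do not follow this choice. In the mouse spinal cord the gamma cluster is known for keeping interneurons alive during development and for the formation of synapses, and gamma isoforms are also made by astrocytes.

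The members differ in how well their reads can be assigned. In the mouse annotation at hand (GENCODE release 21 on the older build GRCm38, used here for gene structure only) all 57 lie on chromosome 18. Each alpha and gamma member joins its own large first exon to constant exons shared by the whole cluster, for 4 exons in all. The shared sequence made up 48.6 to 54.9% of an alpha transcript and 41.7 to 45.5% of a gamma transcript. Each beta member is a gene of 1 exon, with no exon position shared with another member apart from an overlap of Pcdhb21 and Pcdhb22. Likeness of sequence between members at different positions was not measured. Reads from constant exons fit every member of a cluster, and the authors' RSEM estimates divided them. Estimated counts that were not whole, by more than 0.005, made up 99.4% of the nonzero alpha values, 13.9% of the beta values and 99.2% of the gamma values. For other protein-coding genes with a mean over 10 counts the share was 23.2%. Values of single alpha and gamma genes are therefore partly estimates of the split, and sums over a cluster do not depend on it.

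Together the members took 0.0601 to 0.0915% of the counts of a library, whose totals ran from 18222809 to 31781728. Pcdhb1 had 16 counts over all 12 libraries and 0 counts in 4 of them, and was left out by the low-count filter, so that 56 members were tested. Mitochondrial transcripts took 2.2 to 3.36% of counts in OVX8_SCI7, 2.36 to 8.33% in OVX2_SCI7 and 5.35 to 9.35% in SCI7. Across 15087 genes, the level in a library relative to all libraries followed the GC content of the transcript, with a Spearman correlation of 0.16 to 0.84 in OVX8_SCI7, -0.41 to 0.51 in OVX2_SCI7 and -0.81 to -0.49 in SCI7. In OVX2_SCI7, replicate 1 alone had 8.33% and -0.41, and replicate 2 held 732 CPM of 8 sensory neuron markers of the dorsal root ganglion, against 21.7 to 153 CPM in the other libraries. The counts of members that passed were computed again without those 2 libraries, and the group differences also with an offset that takes out the trend on GC content and length.

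The gamma cluster supplied most clustered protocadherin transcript in these lesions, and 2 of its C-type members led. On the TPM scale (transcripts-per-million values, which allow genes of different length to be compared), the gamma cluster held 80.4 ± 1.31% of the summed level in OVX8_SCI7, 78.7 ± 5.01% in OVX2_SCI7 and 73.2 ± 5.78% in SCI7 (SD, n = 4 each). Over all 12 libraries the gamma members had a median of 6.71 TPM, the beta members 1.80 TPM and the alpha members 1.27 TPM.

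Pcdhgc3, a C-type isoform that promotes dendrite branching in the mouse cortex, was the highest member. Its level was 80.8 ± 13.2 TPM in OVX8_SCI7, 66.2 ± 16.8 TPM in OVX2_SCI7 and 60.6 ± 14.5 TPM in SCI7. Pcdhgc4, the gamma isoform on which neuronal survival mainly rests in mice, came next at 42.9 ± 8.44 TPM in OVX8_SCI7, 37.9 ± 11.4 TPM in OVX2_SCI7 and 28.1 ± 4.35 TPM in SCI7. Pcdhgc3 was above Pcdhgc4 within every library, though the lowest library of Pcdhgc3 (48.6 TPM) was below the highest of Pcdhgc4 (53.4 TPM). These genes gave 30.4% (Pcdhgc3) and 15.9% (Pcdhgc4) of the mean gamma level.

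After them came a run of gamma genes with nearly equal means. Pcdhgc5, an isoform found at inhibitory synapses, averaged 10.6 TPM, Pcdhga7 10.3 TPM, Pcdhga11 10.3 TPM and Pcdhgb6 10.2 TPM over the 12 libraries. The library ranges of these 4 genes overlapped almost whole, from 5.87 to 14.5 TPM for Pcdhga11 and from 7.59 to 13.4 TPM for Pcdhgb6, so their order is not resolved. The lowest gamma member was Pcdhga1 at 2.53 TPM.

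In the alpha cluster Pcdhac2, a C-type isoform that serotonergic axons need in order to spread out, was highest at 6.41 TPM and gave 27.6% of the mean alpha level. Pcdha4 followed at 2.73 TPM, Pcdha12 at 1.77 TPM and Pcdhac1, the other C-type alpha isoform, at 1.51 TPM. The lowest was Pcdha8 at 0.385 TPM. Pcdhac2 ranged from 2.21 to 11.99 TPM and Pcdha4 from 0.780 to 5.96 TPM. These ranges overlapped, but within every library Pcdhac2 was above Pcdha4. In the beta cluster Pcdhb9 (4.85 TPM) and Pcdhb17 (4.24 TPM) were highest, with overlapping libraries, and Pcdhb1 was lowest at 0.0425 TPM.

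**Figure D1:**
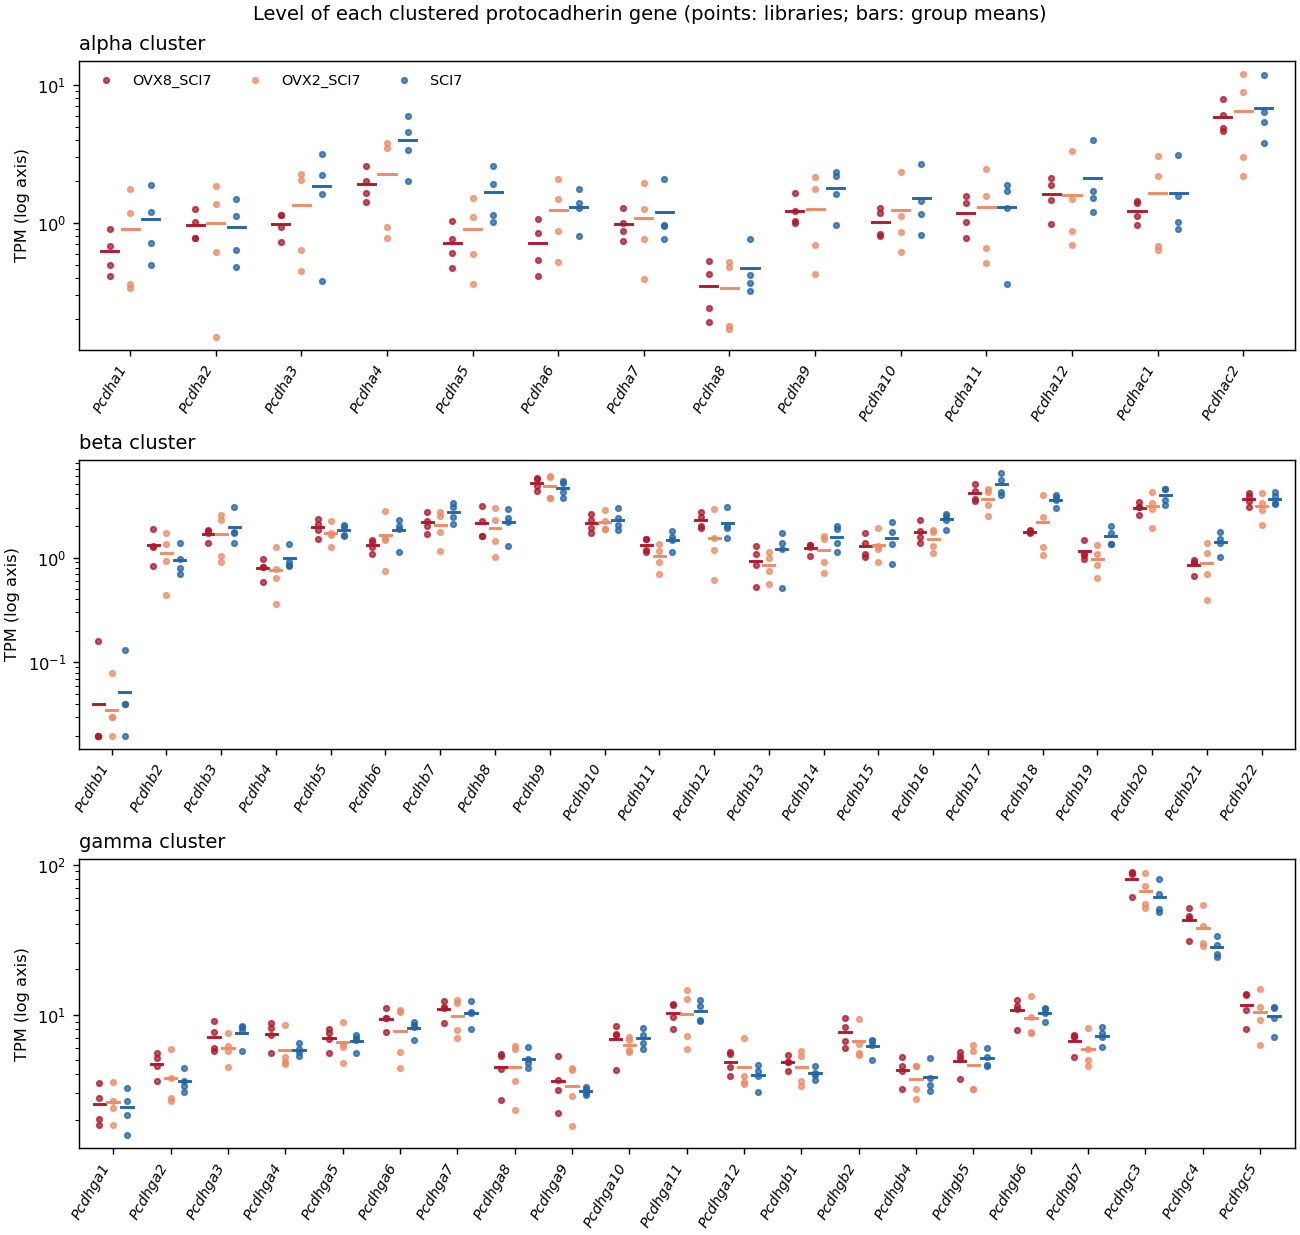
Level of each of the 57 genes in TPM on log axes, by cluster, with 1 point per library and a bar at the mean of OVX8_SCI7, OVX2_SCI7 and SCI7 from left to right; libraries at 0 TPM cannot be drawn. Pcdhgc3 and Pcdhgc4 lie above all other members, most alpha members lie near 1 TPM with wide spread, and Pcdhb1 lies far below the rest.

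The clusters also differed in how far their levels varied between libraries. Summed over its 14 members, the alpha cluster had 54.6, 63.8, 74.2 and 49.7 CPM in OVX8_SCI7, 96.4, 109, 30.9 and 41.9 CPM in OVX2_SCI7, and 88.2, 73.7, 132 and 43.0 CPM in SCI7, in the order of replicates 1 to 4. Replicates 1 and 2 of OVX2_SCI7 and replicate 3 of SCI7 were highest, replicate 3 of OVX2_SCI7 was lowest, and the groups overlapped almost throughout. The highest library held 4.28 times the lowest.

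The beta cluster had 92.7, 99.1, 92.2 and 97.6 CPM in OVX8_SCI7, 110.3, 102, 81.9 and 72.9 CPM in OVX2_SCI7, and 118, 123, 130.3 and 93.7 CPM in SCI7. Replicates 1 to 3 of SCI7 were above every ovariectomy library, and replicate 4 of SCI7 lay within the OVX8_SCI7 range. The highest library held 1.79 times the lowest.

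The gamma cluster had 526, 637, 651 and 629.6 CPM in OVX8_SCI7, 510.2, 653, 556 and 489 CPM in OVX2_SCI7, and 494, 515, 487 and 546 CPM in SCI7. Replicates 2 to 4 of OVX8_SCI7 and replicate 2 of OVX2_SCI7 were highest, while replicate 1 of OVX8_SCI7 lay within the SCI7 range. The highest library held 1.34 times the lowest. Within groups the alpha sum had the widest range, at 1.49-fold in OVX8_SCI7, 3.52-fold in OVX2_SCI7 and 3.07-fold in SCI7. In the same order of groups, beta ran over 1.08-fold, 1.51-fold and 1.39-fold, and gamma over 1.24-fold, 1.34-fold and 1.12-fold. Over all 12 libraries single genes followed the order of the sums. The SD of a gene's log2 CPM over them had a median of 0.66 in the alpha, 0.36 in the beta and 0.22 in the gamma cluster. Alpha genes had a median of 68.5 counts per library and gene, close to the 75 of beta genes, and gamma genes had 351.5. Alpha and beta genes thus differed in spread at similar counts. Counting error is part of the spread of single genes and less so of the sums, and its share was not tested.

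**Figure D2:**
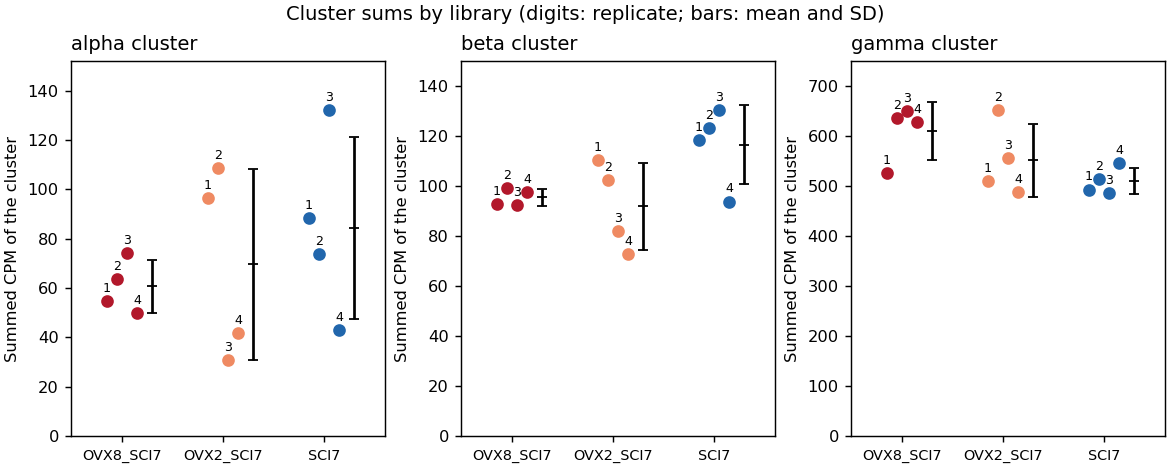
Summed CPM of the alpha, beta and gamma clusters in each library, with the replicate number above each point and bars for mean and SD (n = 4); the axes start at 0. The alpha sums run from 30.9 to 132 CPM with all groups mixed, while the gamma sums run from 487 to 653 CPM.

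**Figure D3:**
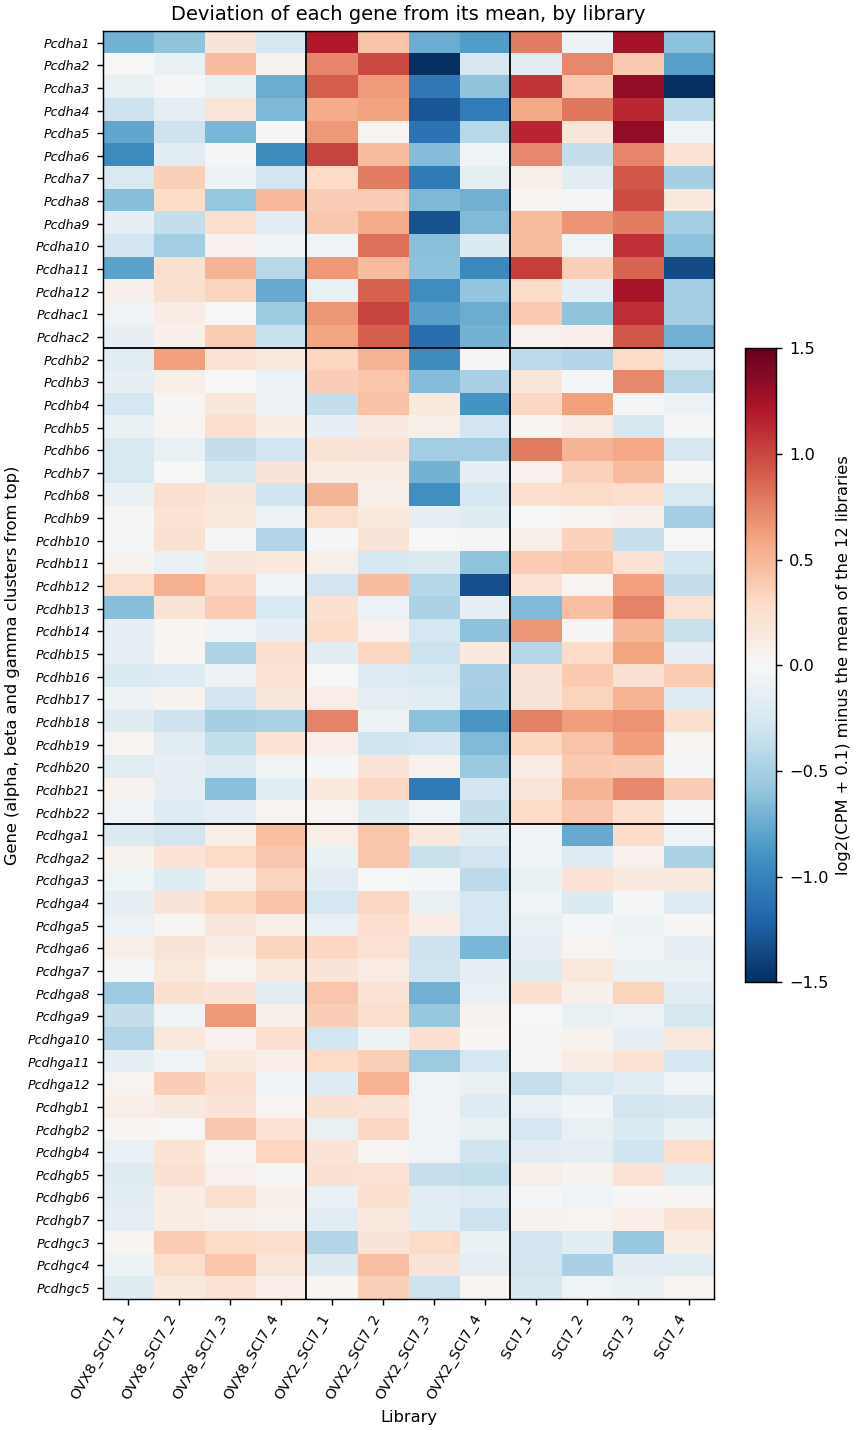
Log2(CPM + 0.1) of 56 genes in each library minus the gene's mean over the 12 libraries, with genes down the page by cluster and libraries across, OVX8_SCI7 at the left. Alpha genes are high together in replicates 1 and 2 of OVX2_SCI7 and replicate 3 of SCI7 and low together in replicates 3 and 4 of OVX2_SCI7, and gamma genes show paler colours.

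The alpha sum moved with the neuronal marker sum of the library. The summed level of 13 neuronal marker genes, among them Snap25, Syt1 and Rbfox3, was 2875, 3324, 3719.7 and 2162 CPM in OVX8_SCI7, 6153, 4943, 1466 and 2516 CPM in OVX2_SCI7, and 4512, 3601, 6433 and 2116 CPM in SCI7. The libraries with high alpha sums were those with high neuronal sums, and the lowest library was the same for both. None of the 13 markers was at 0 in any library. In bulk tissue, fewer neurons and less RNA per neuron cannot be told apart.

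Over the 12 libraries the alpha sum had a Pearson correlation of 0.97 and a Spearman correlation of 0.97 with the neuronal sum. After subtracting each group's mean it stayed at 0.97, and without the 2 libraries farthest from the median it was 0.95. The same correlation was 0.73 for the beta sum (0.80 after subtracting group means) and -0.18 for the gamma sum (-0.03 after subtracting group means). These values are descriptions without a p, since the sums are scores over chosen genes, and both measures of a library share its depth, its scaling and its cell mixture. The alpha sum had a correlation of 0.86 with 7 astrocyte markers, 0.83 with 6 oligodendrocyte markers and -0.79 with 7 microglia and macrophage markers. Because the marker sums share the cell mixture of a library, these correlations cannot tell which cell type the alpha sum followed. The sum of 6 fibroblast markers ran from 850 to 27304 CPM over the libraries, and its correlation with the clusters was not computed. Its highest value and the lowest alpha sum (30.9 CPM) were both in replicate 3 of OVX2_SCI7. The libraries with the lowest fibroblast sums, replicates 1 and 2 of OVX2_SCI7 and replicate 3 of SCI7, had the highest alpha sums. The beta sum had its closest relation to the microglia and macrophage markers, among the 5 marker lists compared, at -0.84 (Spearman -0.90, and -0.85 after subtracting group means). For the gamma sum that correlation was 0.42, and 0.00 after subtracting group means.

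Per 1000 CPM of neuronal markers, the alpha cluster had 20.3 ± 1.86 CPM in OVX8_SCI7, 18.8 ± 3.15 CPM in OVX2_SCI7 and 20.2 ± 0.454 CPM in SCI7 (SD, n = 4 each). The 12 libraries then ran from 15.7 to 23.0 CPM, or 1.47-fold, in place of 4.28-fold for the alpha sum itself. For the beta cluster the same ratio ran over 3.11-fold and for the gamma cluster over 5.01-fold, wider than the sums themselves. The neuronal sum itself ran over 4.39-fold, so dividing a flatter sum such as gamma by it had to widen the range.

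**Figure D4:**
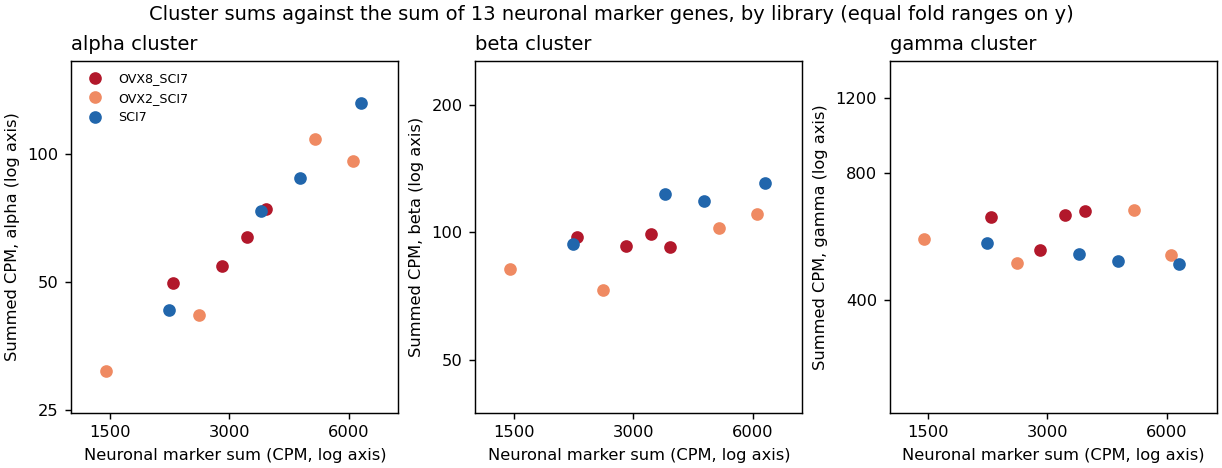
Summed CPM of each cluster against the summed CPM of 13 neuronal marker genes in the 12 libraries, on log axes whose vertical spans cover equal folds; colours mark OVX8_SCI7, OVX2_SCI7 and SCI7. The alpha points lie along a rising line in all groups, the beta points rise less, and the gamma points lie flat.

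Among the 13 highest single members chosen by class, the relation to the neuronal sum in CPM separated alpha from most gamma genes, and less sharply so on the TPM scale. It was closest for Pcdhac2, whose level was 18.2, 20.8, 25.8 and 15.7 CPM in OVX8_SCI7, 29.8, 36.8, 8.94 and 12.1 CPM in OVX2_SCI7, and 20.6, 20.9, 37.9 and 11.999 CPM in SCI7. Its highest libraries were those with the highest neuronal sums. Pearson's r was 0.94 (permutation p = 3e-05) and Spearman's rho 0.94 (permutation p = 1e-05, the smallest that 100000 draws can give). The adjusted p over the 13 relations, from permutations, was 0.00039, and r without the 2 farthest libraries was 0.88. Permutation p-values take no account of the depth, scaling and cell mixture that a gene and the marker sum share. Members of the alpha or gamma cluster also share split reads, so the 13 relations are not independent.

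Pcdha4 had 5.46, 6.17, 7.68 and 4.21 CPM in OVX8_SCI7, 10.01, 10.3, 2.73 and 3.21 CPM in OVX2_SCI7, and 10.1, 11.7, 14.97 and 5.14 CPM in SCI7. Its r was 0.91 (rho 0.88, adjusted permutation p = 0.000455 for r and 0.0026 for rho). Pcdhac1 had 4.05, 4.56, 4.19 and 2.86 CPM in OVX8_SCI7, 6.72, 8.58, 2.36 and 2.49 CPM in OVX2_SCI7, and 5.54, 2.74, 9.20 and 2.92 CPM in SCI7, with an r of 0.88 (rho 0.87, adjusted permutation p = 0.00078 for r and 0.0026 for rho). In both genes replicates 1 and 2 of OVX2_SCI7 were several times replicates 3 and 4. Pcdha12 had 5.20, 5.83, 6.19 and 2.86 CPM in OVX8_SCI7, 4.55, 9.13, 2.52 and 3.21 CPM in OVX2_SCI7, and 5.96, 4.45, 11.7 and 3.43 CPM in SCI7, with an r of 0.83 (rho 0.83, adjusted permutation p = 0.00257 for r and 0.0039 for rho). Without the 2 farthest libraries, r was 0.83 for Pcdha4, 0.84 for Pcdhac1 and 0.70 for Pcdha12.

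Among the 7 gamma genes of these 13, Pcdhga11 had the highest correlation with the neuronal sum. It had 24.96, 26.7, 30.8 and 29.7 CPM in OVX8_SCI7, 34.2, 35.6, 19.0 and 23.1 CPM in OVX2_SCI7, and 27.9, 29.9, 31.96 and 23.2 CPM in SCI7. Its r was 0.84 (rho 0.85, adjusted permutation p = 0.00159 for r and 0.00296 for rho), and 0.76 without the 2 farthest libraries. Pcdhb9, the highest beta gene, had 8.32, 9.49, 9.18 and 7.71 CPM in OVX8_SCI7, 9.85, 9.09, 7.44 and 7.25 CPM in OVX2_SCI7, and 8.23, 8.42, 8.66 and 5.80 CPM in SCI7. Its r was 0.70 (rho 0.74, adjusted permutation p = 0.022 for r and 0.017 for rho), and 0.77 without the 2 farthest libraries.

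Pcdhgc3 went the other way in CPM. It had 174, 222, 208 and 202 CPM in OVX8_SCI7, 126, 195, 209 and 159 CPM in OVX2_SCI7, and 141, 153, 115 and 185 CPM in SCI7. Its r was -0.66 (rho -0.59, adjusted permutation p = 0.0406 for r and 0.0906 for rho), -0.47 without the 2 farthest libraries and -0.28 on the TPM scale, so the relation depended on the scale and on those libraries. For the other 6 of the 13 genes, which were Pcdhb17, Pcdhga7, Pcdhgb6, Pcdhgb2, Pcdhgc4 and Pcdhgc5, r ran from -0.16 to 0.49 and the adjusted permutation p from 0.169 to 0.744. On the TPM scale r was higher for each of them. It was 0.60 for Pcdhb17, 0.58 for Pcdhgc5, 0.55 for Pcdhga7, 0.54 for Pcdhgb6, 0.30 for Pcdhgb2 and -0.04 for Pcdhgc4. The alpha genes had 0.88 (Pcdha12) to 0.96 (Pcdhac2) on that scale.

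Ovariectomy 8 weeks before the injury came with lower levels of 2 genes, Pcdhb18 and Pcdha5 (edgeR). No clustered protocadherin gene passed as higher by this test with all 12 libraries and mitochondrial transcripts kept. With mitochondrial transcripts left out, Pcdhgc4 also passed, as higher. Of the 56 members tested, 2 passed an adjusted p of 0.05 in OVX8_SCI7 against SCI7 (edgeR quasi-likelihood test, Benjamini-Hochberg adjustment over all 17821 genes tested). In that comparison 27.5% of all genes passed, 11.9% higher and 15.6% lower, so the members' share of 3.57% was below that of all genes. At an unadjusted p of 0.05 the count was 9 of 56 members, 3 higher and 6 lower, against 43.2% of all genes (20.6% higher and 22.6% lower). DESeq2 passed 4 members (Pcdhb18, Pcdha5 and Pcdhb6 lower and Pcdhgc4 higher), against 35.9% of all genes, and limma-voom 1 member, against 27.7%.

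Pcdhb18, a beta isoform with no shared exon, had 5.90, 5.40, 4.74 and 4.80 CPM in OVX8_SCI7, 11.3, 6.35, 4.34 and 3.62 CPM in OVX2_SCI7, and 11.5, 10.4, 10.8 and 7.97 CPM in SCI7. All 4 OVX8_SCI7 libraries were below all 4 SCI7 libraries, and replicate 1 of OVX2_SCI7 lay among the SCI7 libraries. It fell in OVX8_SCI7 against SCI7 with a log2 fold change of -0.96 (SE 0.31, adjusted p = 0.0371, edgeR). With the GC and length offset the log2 fold change was -0.28 (adjusted p = 0.574, edgeR), and its transcript has a GC content of 41.8%. The call was lost without any of the OVX8_SCI7 replicates 1 to 4 (adjusted p 0.0668 to 0.0926, edgeR) and without SCI7 replicates 1 to 3 (0.0742 to 0.0865), while the log2 fold change stayed between -1.06 and -0.90 over the 12 fits that each left out 1 library. The 7 microglia and macrophage markers, none at 0 in any library, summed to 1605 to 1792 CPM in OVX8_SCI7, 952 to 1967 CPM in OVX2_SCI7 and 626 to 1351 CPM in SCI7, and in OVX8_SCI7 against SCI7 2 of them rose and 1 fell (edgeR). All OVX8_SCI7 libraries were above all SCI7 libraries in that sum, and its part in the Pcdhb18 and beta differences was not tested.

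Pcdha5, an alternate alpha isoform, had 1.63, 2.29, 1.75 and 2.91 CPM in OVX8_SCI7, 4.55, 2.97, 1.28 and 2.12 CPM in OVX2_SCI7, and 6.49, 3.27, 7.35 and 2.77 CPM in SCI7. Replicates 1 and 3 of SCI7 were far above the rest, and replicate 4 of OVX8_SCI7 was above replicate 4 of SCI7, so the groups overlapped. It fell in OVX8_SCI7 against SCI7 with a log2 fold change of -1.21 (SE 0.41, adjusted p = 0.0478, edgeR). With the offset the log2 fold change was -1.0 (adjusted p = 0.265, edgeR). The call was lost without OVX8_SCI7 replicates 1 to 3 (adjusted p 0.104 to 0.117, edgeR), OVX2_SCI7 replicates 2 or 4 (0.0571 to 0.0576) or SCI7 replicates 1 to 3 (0.0637 to 0.124). The mean neuronal sum was 3020 ± 668 CPM in OVX8_SCI7 and 4165 ± 1806 CPM in SCI7, none of the 13 neuronal markers passed the test in that comparison, and the part of neuronal content in the Pcdha5 difference was not tested.

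Several other members came close without passing with edgeR on all 12 libraries with mitochondrial transcripts kept. Pcdhgc4 had 51.5, 65.2, 72.7 and 61.5 CPM in OVX8_SCI7, 47.0, 74.5, 62.3 and 48.9 CPM in OVX2_SCI7, and 45.0, 38.7, 48.5 and 48.0 CPM in SCI7. All OVX8_SCI7 libraries were above all SCI7 libraries, replicate 1 by a small margin. Pcdhgc4 had a log2 fold change of 0.48 in OVX8_SCI7 against SCI7 (SE 0.17, adjusted p = 0.0531, edgeR), and of 0.03 with the offset. For Pcdhgc3 it was 0.44 (SE 0.19, adjusted p = 0.0963, edgeR) and -0.07 with the offset, and replicate 4 of SCI7 at 185 CPM was above replicate 1 of OVX8_SCI7 at 174 CPM.

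Pcdhb6 had 2.25, 2.45, 2.05 and 2.16 CPM in OVX8_SCI7, 3.07, 3.06, 1.82 and 1.81 CPM in OVX2_SCI7, and 4.64, 3.81, 4.03 and 2.22 CPM in SCI7. Replicate 4 of SCI7 lay within the OVX8_SCI7 range and the other SCI7 libraries above it. Its log2 fold change was -0.72 (SE 0.27, adjusted p = 0.0632, edgeR), and -0.40 with the offset. Pcdhgb2 had 18.4, 18.05, 24.0 and 20.98 CPM in OVX8_SCI7, 16.7, 22.5, 17.5 and 16.7 CPM in OVX2_SCI7, and 14.99, 16.6, 15.6 and 16.8 CPM in SCI7. All OVX8_SCI7 libraries were above all SCI7 libraries. Its log2 fold change was 0.35 (SE 0.15, adjusted p = 0.0912, edgeR), and 0.00 with the offset.

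In OVX8_SCI7 against SCI7, 5 members had all OVX8_SCI7 libraries above all SCI7 libraries, namely Pcdhga6, Pcdhga12, Pcdhgb1, Pcdhgb2 and Pcdhgc4, and all are gamma genes. For all genes tested that share was 19.6%, so 5 of 56 was below it. The 3 members with all OVX8_SCI7 libraries below all SCI7 libraries were the beta genes Pcdhb18, Pcdhb20 and Pcdhb21, against 19.5% of all genes. Pcdhga6, Pcdhga12, Pcdhgb1, Pcdhb20 and Pcdhb21 are named here after their values were seen.

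The sign of the difference followed the cluster, and for beta and gamma genes it changed with the GC and length offset. In OVX8_SCI7 against SCI7 all 14 alpha genes had a log2 fold change below 0 (median -0.51), 17 of 21 beta genes had one below 0 (median -0.28) and 16 of 21 gamma genes had one above 0 (median 0.17), beside a median of 0.01 over all genes, of which 49.1% lay below 0. The median GC content was 47.3% in alpha, 46.0% in beta and 53.1% in gamma transcripts. With the GC and length offset the counts were 13 of 14 alpha genes below 0 (median -0.31), 8 of 21 beta genes below 0 (median 0.08) and 5 of 21 gamma genes above 0 (median -0.14), beside a median of -0.06 over all genes. The alpha direction therefore held with the offset, and the beta and gamma directions turned. The GC trend did not overlap between OVX8_SCI7 and SCI7 libraries, so the offset may also take out a difference between the groups. These cannot be told apart here. Members of the alpha or gamma cluster share reads and libraries, so these counts are not independent observations.

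The summed clusters had the same signs without the offset, and with it the gamma sum turned and the beta sum came close to 0. In OVX8_SCI7 against SCI7 the alpha sum averaged 60.6 ± 10.8 CPM in OVX8_SCI7 and 84.3 ± 37.1 CPM in SCI7, a log2 fold change of -0.48 (SE 0.40), which was -0.28 with the offset and -0.18 without replicate 3 of SCI7. The beta sum averaged 95.4 ± 3.47 CPM in OVX8_SCI7 and 116 ± 15.9 CPM in SCI7, a log2 fold change of -0.29 (SE 0.15), which was -0.0026 with the offset. The gamma sum averaged 611 ± 57.3 CPM in OVX8_SCI7 and 511 ± 26.6 CPM in SCI7, a log2 fold change of 0.26 (SE 0.15), which was -0.09 with the offset. Within the gamma cluster the 3 C-type genes averaged 292 ± 30.5 CPM in OVX8_SCI7 and 218 ± 30.2 CPM in SCI7, and the 18 genes of the A and B classes 319 ± 29.1 CPM in OVX8_SCI7 and 293 ± 7.45 CPM in SCI7.

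**Figure D5:**
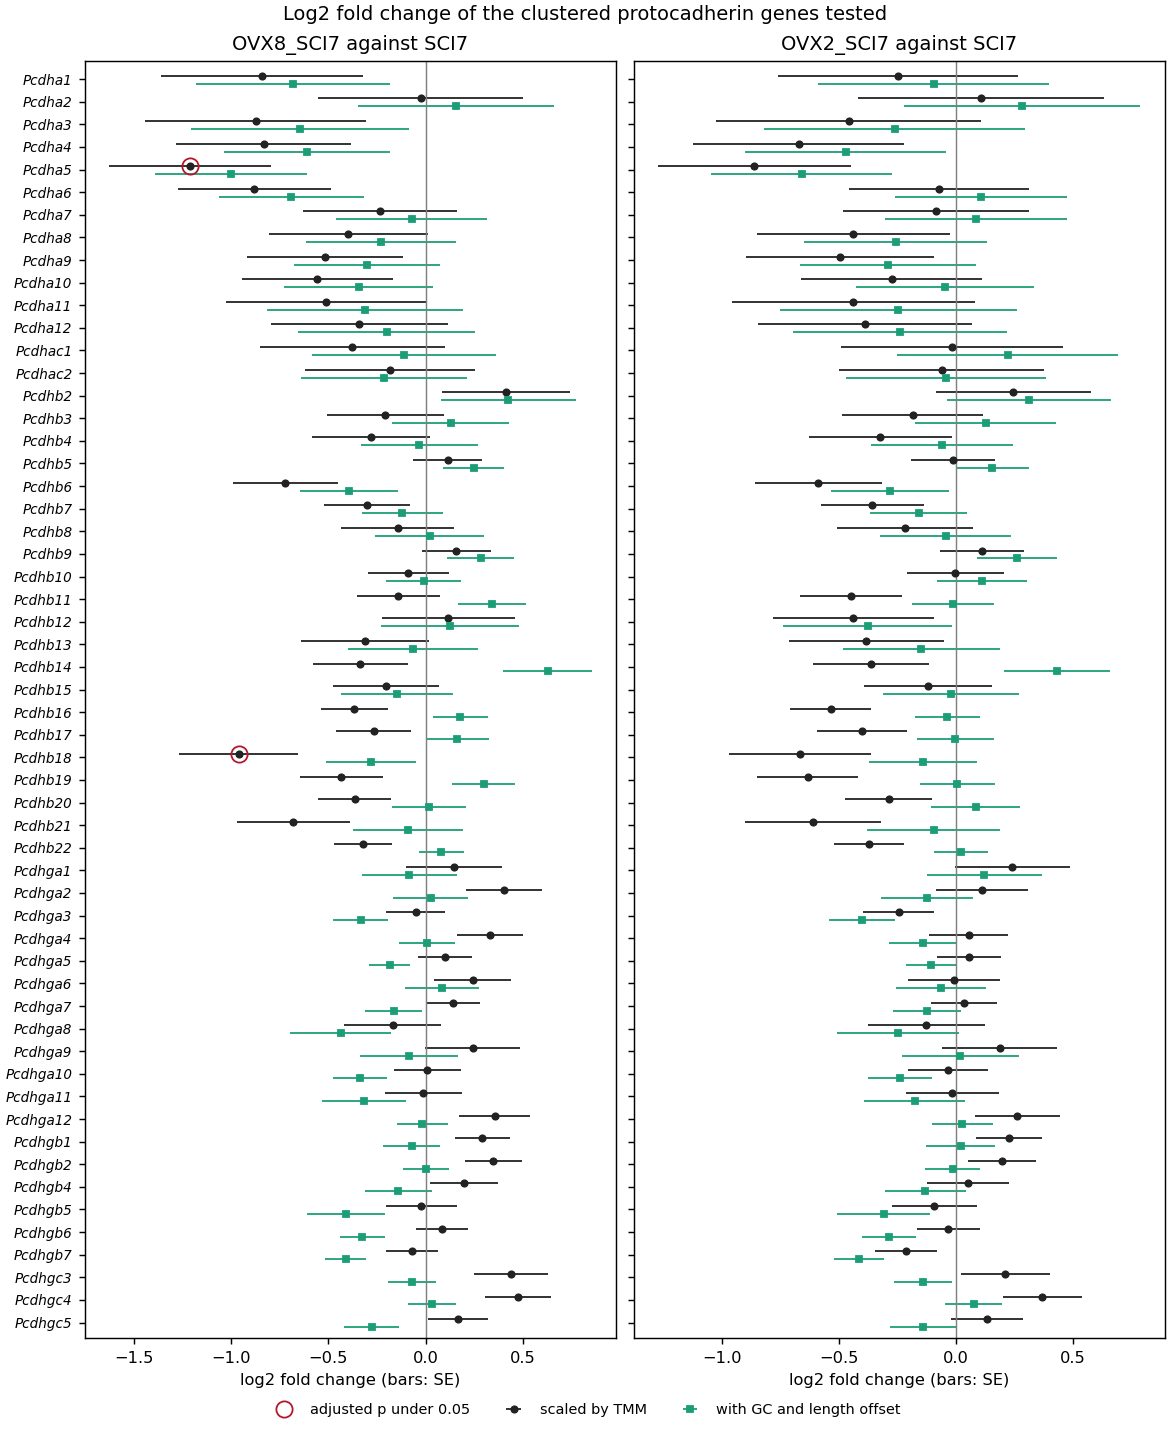
Log2 fold change of the 56 genes tested in OVX8_SCI7 against SCI7 (left) and OVX2_SCI7 against SCI7 (right), with bars for the SE, as scaled by TMM (black circles) and with the GC and length offset (green squares); red rings mark an adjusted p under 0.05. Pcdha5 and Pcdhb18 carry the only rings, and most gamma genes lie right of 0 without the offset and left of it with the offset.

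In OVX2_SCI7 against SCI7 the calls on clustered protocadherin genes depended on the tool. With edgeR 0 of 56 members passed an adjusted p of 0.05, where 0% of all genes passed. At an unadjusted p of 0.05 there were 6 members, 1 higher and 5 lower, against 32.5% of all genes (17.5% higher and 15% lower). DESeq2 passed 2 members, both lower, against 20.8% of all genes, and limma-voom 0 members, against 5.02%. This comparison uses the same SCI7 libraries as the one above, so its values are not independent of it.

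The smallest p was that of Pcdhb16, which had 4.75, 4.78, 5.19 and 6.42 CPM in OVX8_SCI7, 5.45, 4.77, 4.66 and 3.88 CPM in OVX2_SCI7, and 6.28, 7.24, 6.48 and 7.21 CPM in SCI7. All OVX2_SCI7 libraries were below all SCI7 libraries, as for 6.29% of all genes, and it was the only member with that pattern in OVX2_SCI7 against SCI7. Pcdhb16 had a log2 fold change of -0.54 (SE 0.17, adjusted p = 0.0670, edgeR), and of -0.04 with the offset. Pcdhb19 had 5.20, 4.47, 3.89 and 5.82 CPM in OVX8_SCI7, 5.40, 4.08, 4.23 and 3.16 CPM in OVX2_SCI7, and 6.33, 6.81, 7.84 and 5.19 CPM in SCI7. Replicate 4 of SCI7 lay below replicate 1 of OVX2_SCI7, and the other SCI7 libraries lay above all ovariectomy libraries. Pcdhb19 had a log2 fold change of -0.63 (SE 0.21, adjusted p = 0.0755, edgeR), and of 0.01 with the offset. Pcdhb16 and Pcdhb19 were the 2 genes that passed with DESeq2 (adjusted p = 0.0190 for Pcdhb16 and 0.0300 for Pcdhb19).

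Pcdhb22 had 11.3, 10.2, 10.5 and 12.03 CPM in OVX8_SCI7, 12.02, 10.3, 11.1 and 9.11 CPM in OVX2_SCI7, and 14.3, 15.5, 13.9 and 11.4 CPM in SCI7. Replicates 1 to 3 of SCI7 were above every other library. The log2 fold change in OVX2_SCI7 against SCI7 was -0.37 (SE 0.15, adjusted p = 0.111, edgeR), and 0.02 with the offset. For Pcdhb18 it was -0.67 (SE 0.30, adjusted p = 0.152, edgeR), and -1.10 without replicate 1 of OVX2_SCI7 (adjusted p = 0.00482, edgeR). Without that library 5 of 56 members passed, all lower (Pcdhb16, Pcdhb18, Pcdhb19, Pcdhb22 and Pcdha5), where 17.6% of all genes passed lower (edgeR). Without replicates 1 and 2 of OVX2_SCI7 11 passed, all lower, against 18.9% of all genes. The 11 were Pcdhb6, Pcdhb12, Pcdhb16, Pcdhb18, Pcdhb19, Pcdhb21, Pcdha4, Pcdha5, Pcdha9, Pcdhac2 and Pcdhga6. The 2 libraries left out had the highest neuronal marker sums of their group, at 6153 and 4943 CPM. Replicates 3 and 4, which were kept, had 1466 and 2516 CPM. The part of neuronal content in these calls was not tested. With replicates 1 and 2 of OVX2_SCI7 left out, 8 members passed in OVX8_SCI7 against SCI7, against 41.9% of all genes. Of these, 3 were higher (Pcdhgc4, Pcdhgb2 and Pcdhgc3), against 20.5% of all genes, and 5 lower (Pcdhb18, Pcdhb21, Pcdhb6, Pcdha5 and Pcdha4), against 21.4%.

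In OVX2_SCI7 against SCI7 13 of 14 alpha genes had a log2 fold change below 0 (median -0.33), 19 of 21 beta genes had one below 0 (median -0.36) and 13 of 21 gamma genes had one above 0 (median 0.05), where the median of all genes was 0.04 and 47.5% of them lay below 0. With the offset the medians were -0.17 for alpha, -0.01 for beta and -0.13 for gamma genes. The alpha sum averaged 69.5 ± 38.8 CPM in OVX2_SCI7 and 84.3 ± 37.1 CPM in SCI7, a log2 fold change of -0.28 (SE 0.40), which was 0.01 without replicate 3 of SCI7. The beta sum averaged 91.9 ± 17.4 CPM in OVX2_SCI7 and 116 ± 15.9 CPM in SCI7, a log2 fold change of -0.34 (SE 0.15). The gamma sum averaged 552 ± 73.0 CPM in OVX2_SCI7 and 511 ± 26.6 CPM in SCI7, a log2 fold change of 0.11 (SE 0.15).

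Longer against shorter ovariectomy gave no difference that the test could tell from the spread between libraries. In OVX8_SCI7 against OVX2_SCI7, edgeR passed 0 of 56 members and 0% of all genes, and DESeq2 0 members and 0.0337% of all genes. At an unadjusted p of 0.05 there were 0 members with edgeR, against 2.21% of all genes, 0 with limma-voom, against 2.07%, and 1 with DESeq2, against 2.65%. Of the log2 fold changes, 12 of 14 alpha, 7 of 21 beta and 2 of 21 gamma values lay below 0, against 55.5% of all genes, and with the offset 12 alpha, 5 beta and 14 gamma values did. The smallest p was that of Pcdha6, which had 1.45, 2.57, 2.84 and 1.46 CPM in OVX8_SCI7, 5.98, 4.03, 1.82 and 2.796 CPM in OVX2_SCI7, and 4.85, 2.25, 4.90 and 3.38 CPM in SCI7. Replicates 1 and 2 of OVX2_SCI7 were above the OVX8_SCI7 libraries and replicates 3 and 4 lay within their range. The log2 fold change was -0.81 (95% interval -1.58 to -0.04, adjusted p = 0.999, edgeR).

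Pcdhga4 had 15.2, 19.2, 21.1 and 22.5 CPM in OVX8_SCI7, 13.9, 20.9, 15.5 and 14.1 CPM in OVX2_SCI7, and 16.1, 14.6, 16.6 and 14.7 CPM in SCI7. Pcdhga2 had 11.1, 12.3, 13.2 and 14.1 CPM in OVX8_SCI7, 9.95, 14.3, 8.46 and 8.70 CPM in OVX2_SCI7, and 10.2, 9.33, 11.2 and 7.61 CPM in SCI7. In both, replicate 2 of OVX2_SCI7 stood well above the other libraries of its group and the 2 ovariectomy groups overlapped. Pcdhb12 had 3.79, 4.59, 3.89 and 3.02 CPM in OVX8_SCI7, 2.54, 4.36, 2.30 and 1.19 CPM in OVX2_SCI7, and 3.64, 3.22, 4.85 and 2.42 CPM in SCI7, with overlap as well. The log2 fold change in OVX8_SCI7 against OVX2_SCI7 was 0.28 for Pcdhga4 (95% interval -0.06 to 0.61), 0.29 for Pcdhga2 (-0.10 to 0.67) and 0.56 for Pcdhb12 (-0.12 to 1.23).

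In the joint test of the 3 groups, 0 of 56 members passed an adjusted p of 0.05 with edgeR, against 14.9% of all genes. At an unadjusted p of 0.05 there were 6 members, Pcdhb18, Pcdhb16, Pcdha5, Pcdhb19, Pcdhgc4 and Pcdhb6, against 35.3% of all genes. The smallest adjusted p was 0.0838, for Pcdhb18.

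None of the remaining high members passed in any comparison (edgeR). Pcdhb17 had 10.6, 11.6, 9.13 and 12.6 CPM in OVX8_SCI7, 11.97, 10.1, 10.01 and 7.87 CPM in OVX2_SCI7, and 12.8, 14.1, 16.1 and 9.78 CPM in SCI7, with replicates 1 to 3 of SCI7 highest. Its log2 fold change was -0.27 in OVX8_SCI7 against SCI7 (95% interval -0.64 to 0.11, 0.16 with the offset) and -0.40 in OVX2_SCI7 against SCI7 (-0.78 to -0.03, adjusted p = 0.166, edgeR, -0.00 with the offset). Pcdhgc5 had 22.8, 28.6, 30.0 and 27.8 CPM in OVX8_SCI7, 26.5, 33.2, 20.7 and 26.4 CPM in OVX2_SCI7, and 21.8, 24.8, 24.1 and 26.6 CPM in SCI7. Pcdhga7 had 27.3, 30.7, 28.5 and 31.0 CPM in OVX8_SCI7, 31.6, 30.1, 22.4 and 25.2 CPM in OVX2_SCI7, and 24.3, 30.9, 25.8 and 25.7 CPM in SCI7. In Pcdhgc5 and Pcdhga7 all 3 groups overlapped. Pcdhgb6 had 24.3, 29.5, 32.2 and 28.7 CPM in OVX8_SCI7, 25.5, 32.3, 24.1 and 23.9 CPM in OVX2_SCI7, and 26.9, 26.1, 27.6 and 27.6 CPM in SCI7, where the SCI7 libraries lay within the range of either ovariectomy group. In OVX8_SCI7 against SCI7 the log2 fold change was 0.17 for Pcdhgc5 (95% interval -0.14 to 0.47), 0.14 for Pcdhga7 (-0.13 to 0.41) and 0.08 for Pcdhgb6 (-0.18 to 0.35).

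Genes that control the clusters or act with their proteins were read from 5 lists, all of whose members were tested. Of 21 genes of chromatin control, 9 fell and 1 rose in OVX8_SCI7 against SCI7 (edgeR), with a median log2 fold change of -0.43, where 15.6% of all genes fell and 11.9% rose. Those that fell were Ctcf, whose protein anchors the loops of the clusters, Rad21, Smc3, Stag1 and Stag2 of the cohesin ring, Wapl, Pds5a and Pds5b, which regulate its release, and Hells, a chromatin remodeller needed for DNA methylation. Stag2 had the largest fall of the cohesin ring genes, with a log2 fold change of -0.85 (SE 0.18, adjusted p = 0.0143, edgeR), and for Ctcf it was -0.43 (SE 0.12, adjusted p = 0.0223, edgeR). Wiz, a zinc finger protein of the G9a histone methylation complex, rose with 0.70 (SE 0.19, adjusted p = 0.0243, edgeR). With the GC and length offset the median of the list was 0.04, Ctcf was at -0.17 and Stag2 at 0.19, and none of all genes passed.

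Of 25 genes of binding partners and signalling, 8 fell and 2 rose in OVX8_SCI7 against SCI7 (edgeR), with a list median of -0.26 and of -0.13 with the offset. Beside the 15.6% of all genes that fell and the 11.9% that rose, the share that fell was above and the share that rose below that of all genes. The actin regulators Nckap1, Abi1 and Abi2 of the WAVE complex fell, Abi2 with a log2 fold change of -1.22 (SE 0.29, adjusted p = 0.0155, edgeR) and -0.62 with the offset. Rac1, Rock1 and Rock2, which carry signals to the cytoskeleton, Marcks, a membrane-bound substrate of protein kinase C, and Pdcd10, a partner of the gamma proteins, also fell. Axin1, a Wnt pathway scaffold that the Pcdhgc3 protein binds, rose with 0.84 (SE 0.22, adjusted p = 0.0205, edgeR) and 0.24 with the offset. Nlgn2, a synaptic adhesion protein, rose with 0.80 (SE 0.19, adjusted p = 0.0164, edgeR) and was at -0.02 with the offset.

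In the 3 remaining lists the counts are again read beside 11.9% of all genes higher and 15.6% lower. Of 8 genes of proteolysis, whose products cut protocadherins at the membrane, Psen2 (log2 fold change 0.90) and Aph1a (0.75) rose and Adam10 (-0.63) and Aph1b (-0.86) fell, with adjusted p-values of 0.0217 to 0.0455 (edgeR) and a list median of 0.32. With the offset Psen2 was at 0.38, Aph1a at 0.35, Adam10 at -0.01 and Aph1b at -0.35. Psen2, Aph1a and Aph1b belong to gamma-secretase, and Adam10 is the sheddase that acts before it. Of 12 non-clustered protocadherin genes, Pcdh1 rose (0.74) and Pcdh11x (-1.38), Pcdh19 (-0.62) and Pcdh20 (-0.96) fell, with adjusted p-values of 0.0164 to 0.0409 (edgeR) and a list median of -0.54. With the offset Pcdh1 was at -0.07, Pcdh11x at -0.10, Pcdh19 at -0.45 and Pcdh20 at -0.29. Of 25 other cadherin superfamily genes, Cdh22 (0.69) and Cdh24 (0.84) rose and Cdh19 (-1.11), a cadherin of Schwann cell and oligodendrocyte lineages, fell, with adjusted p-values of 0.0143 to 0.0481 (edgeR) and a list median of 0.12, so both shares of the cadherins were below those of all genes. With the offset Cdh22 was at -0.24, Cdh24 at -0.00 and Cdh19 at -0.01. In OVX2_SCI7 against SCI7 and in OVX8_SCI7 against OVX2_SCI7 no gene of the 5 lists passed with edgeR, which passed 0% of all genes in both.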

How the data were processed

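RNA sequencing of 12 injured spinal cords, 3 groups of 4, was analysed from 3 deposited tables. Per the submitters' processing notes, the tools were fastp 0.23.4, HISAT2 2.2.1, RSEM 1.3.3, DESeq2 1.42.0, edgeR and limma, with build GRCm39; library kit, RNA selection and strand setting are not given in the sources used here. The authors deposited expected counts, estimated by RSEM and rounded here to whole numbers. The authors also deposited TPM and FPKM values; FPKM was only looked at. The 3 columns of group means in each table, 9 in all, equal the means of the replicate columns and were not used.

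Counts were kept by filterByExpr, scaled by TMM and fitted with edgeR 4.0.16 (robust quasi-likelihood F-test, all 12 libraries, group as only term, Benjamini-Hochberg adjustment over 17821 genes, threshold 0.05; common biological coefficient of variation 0.312) in R 4.3.3 with limma 3.58.1 and DESeq2 1.42.0. CPM are counts-per-million values from the rounded counts and TMM-scaled totals. With totals of 18222809 to 31781728 counts, 3 counts equal 0.0944 to 0.165 CPM; such floors cover counting error only. The fits were tested on simulated data, and cluster sums have no p. The offset was a natural spline (5 degrees of freedom) of each library's deviation on GC content and log length, fitted where the mean level was 5 CPM or more; the GENCODE annotation covered 97.9% of the genes tested. Correlation p-values used 100000 permutations, two-sided. Every 2 libraries of the same group differed beyond sampling noise (chi-square per gene 13.1 to 386). The members and the gene lists were chosen with earlier results of these data known. Values per library are given for the 2 highest members of each class, all C-type members with a mean of at least 0.5 TPM, and the 4 members with the smallest p in each comparison, 23 genes. Alternatives were other scalings, filters, tools, the replicate number as a block, leaving out each library, and the offset; leaving out OVX2_SCI7 replicates 1 and 2 or mitochondrial transcripts was added after seeing the data.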

Additional observations from a re-analysis of the deposited data

Results flagged for a closer look

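Of 78 groups of 4 libraries examined (the values of a gene or cluster sum in 1 group), 3 held a library far from the others, where the gap to the nearest library divided by the range exceeded Dixon's 95% critical value. Chance flags about 1 in 20 groups. The gamma cluster sum in OVX8_SCI7 was 526 CPM in replicate 1, and 629.6 to 651 CPM in the other 3 libraries. Pcdhb9 in SCI7 was 5.80 CPM in replicate 4, and 8.23 to 8.66 CPM in the other libraries. Pcdhgb2 in OVX2_SCI7 was 22.5 CPM in replicate 2, the library with the high level of sensory neuron markers, and 16.7 to 17.5 CPM in the other libraries. What set these libraries apart was not tested.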

How the results depend on the processing

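Of 676 values computed under other settings, 29 counts or cluster sums moved and 16 log2 fold changes of named genes changed sign. The 2 members called in OVX8_SCI7 against SCI7 became 0 without the low-count filter, with limma-trend on log2(TPM + 1) or log2(TPM + 0.1), and with the GC and length offset (alone, with the replicate block, or without OVX2_SCI7 replicate 2). They became 1 with limma-voom, 3 without mitochondrial transcripts (Pcdhgc4 higher), 4 with DESeq2 and 6 with the 8 libraries alone. The count was 8 without OVX2_SCI7 replicates 1 and 2, and 0 to 4 when 1 library was left out. In OVX2_SCI7 against SCI7 the 0 members became 2 with DESeq2, 11 without OVX2_SCI7 replicates 1 and 2, and 0 to 5 when 1 library was left out. The joint test gave 11 without OVX2_SCI7 replicates 1 and 2 and 4 without OVX2_SCI7 replicate 1. In OVX8_SCI7 against OVX2_SCI7 the count was 0 under every setting run.

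With the offset, the beta sum had a log2 fold change of -0.0026 in OVX8_SCI7 against SCI7 and -0.0649 in OVX2_SCI7 against SCI7, and the gamma sum one of -0.0888 in OVX8_SCI7 against SCI7 and -0.0946 in OVX2_SCI7 against SCI7. Signs turned with the offset for Pcdhgc3 in OVX8_SCI7 against SCI7 (-0.0709 with the offset, -0.0696 with the block added, -0.0718 without OVX2_SCI7 replicate 2) and in OVX2_SCI7 against SCI7 (-0.141, -0.135 and -0.146 in the same order). In OVX2_SCI7 against SCI7 they also turned for Pcdhb19 (0.00696, 0.0050 with the block), Pcdhb22 (0.0218, 0.0219 with the block, 0.0264 without that library) and Pcdhgc4 (-0.00091 without that library). With 1 library left out, Pcdhac2 ran from -0.392 (without SCI7 replicate 4) to 0.166 (without SCI7 replicate 3) in OVX8_SCI7 against SCI7, and from -0.416 (without OVX2_SCI7 replicate 2) to 0.283 (without SCI7 replicate 3) in OVX2_SCI7 against SCI7. The causes were not tested.

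With the replicate number as a block, 1 member was called in OVX8_SCI7 against SCI7 and 0 in the other comparisons and the joint test. Libraries with the same number deviated together with correlations of -0.60 to 0.47, so the numbers were not taken as pairs. Low counts limit the alpha and beta genes most, where single libraries hold a median of 68.5 and 75 counts per gene. OVX8_SCI7 and SCI7 libraries do not overlap in GC trend, mitochondrial share or summed microglia and macrophage markers, and these cannot be told apart from the surgery.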
